A study of Mus musculus with 18 samples.

Results

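The comparison described here asks what 10 uM SB24011 adds to the response of RAW264.7 cells to cGAMP. It sets the 3 libraries from cells given cGAMP (20 uM) and SB24011 (10 uM) against the 3 libraries from cells given cGAMP (20 uM) alone, so 6 of the 18 libraries of the series were compared, over all genes that passed a filter on low counts. RAW264.7 is an established mouse macrophage-like line, here labelled wild type, and every group was treated for 6 h in serum-free medium. Members were chosen by their treatment labels and not by any measured value. The 3 libraries with cGAMP (20 uM) and SB24011 (20 uM) are used beside them to see whether the higher dose moved expression further, and the 3 DMSO libraries give the unstimulated level. The series' title names SB24011 as an inhibitor of the interaction of STING with TRIM29. The line is a single cell line, and all these groups but DMSO received cGAMP, so each difference is one on a background of cGAMP.

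cGAMP is the second messenger made by the DNA sensor cGAS. It binds STING on the endoplasmic reticulum, and STING then recruits the kinase TBK1, which activates the transcription factor IRF3 and through it interferon beta and the interferon-stimulated genes, while a second branch runs through NF-kB to inflammatory cytokines. A separate programme, the integrated stress response, acts through phosphorylation of eIF2alpha and translation of the transcription factor ATF4. ATF4 pairs with C/EBP proteins on composite elements in the promoters of genes for amino acid uptake, amino acid synthesis and tRNA charging. Heat shock factor 1 drives chaperone genes, and E2F factors drive the genes of DNA replication.

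Adding 10 uM SB24011 to cGAMP raised the genes of the integrated stress response, several NF-kB cytokine genes and the genes for amino acid supply, and lowered the heat shock chaperones and the genes of DNA replication and cell division. In edgeR's quasi-likelihood test 5708 of 14650 genes tested were called at a Benjamini-Hochberg adjusted p under 0.05, which is 39.0% of them. Of these, 2910 (19.9% of genes tested) were higher and 2798 (19.1%) lower with SB24011. A change of at least 2-fold was found in 613 called genes that were higher (4.18%) and 189 that were lower (1.29%). The median log2 fold change over all genes tested was 0.02. Most calls were therefore shifts of less than 2-fold, and the lists are read against these shares. The libraries of the cGAMP and SB24011 groups did not overlap in 50.5% of genes tested, counting either direction. In bulk RNA, fewer cells of a type and less RNA per cell cannot be told apart.

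Total counts ranged from 45165780 to 65810517 over the 18 libraries. Transcripts of the mitochondrial genome took 2.18 to 2.46% of counts with cGAMP and 2.28 to 2.52% with 10 uM SB24011 added. All 10 macrophage markers were detected, with summed levels of 5240 to 6019 CPM (TMM-scaled read counts on a common library size) with cGAMP and 4522 to 5354 CPM with SB24011 added. Lyz2 was the highest of them, and 1 was under 1 CPM in every library. Of the 9 tested, 3 were called lower and 1 higher with SB24011 (44.4%, against 39.0% of all genes). All 8 epithelial markers were at 0 in every library, as were the defining T cell genes Cd3d, Cd3e and Cd8a, and the granulocyte genes Ly6g, Mpo and Elane. The T cell list summed to 15.8 to 20.1 CPM with cGAMP and 20.2 to 27.4 CPM with SB24011 added, nearly all from the kinase gene Lck, and the granulocyte list to 1.32 to 1.81 and 4.6 to 6.33 CPM, mostly from the receptor gene Csf3r. The labels do not say whether the replicates were separate cultures, so p-values measure only the spread between these libraries. Replicate 1 of both SB24011 groups was above replicates 2 and 3 in several cytokine genes, and values without it are given beside the calls it decides.

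**Figure D1:**
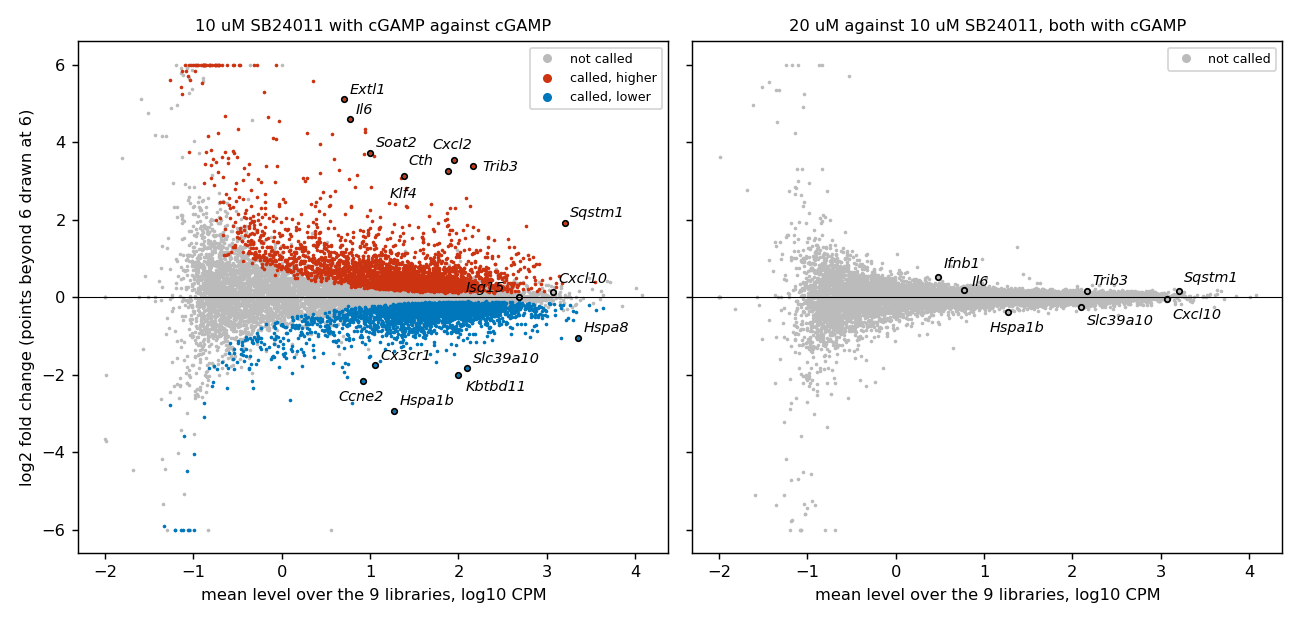
Each point is a gene, with its mean level over the 9 libraries (log10 CPM) on the horizontal axis and its log2 fold change on the vertical axis. Left, 10 uM SB24011 with cGAMP against cGAMP, where 5708 of 14650 genes were called (red higher, blue lower); right, 20 uM against 10 uM SB24011, where none was called and the named genes lie near 0.

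Promoters of 3 genes of the integrated stress response, 1 chaperone, 1 replication gene and 1 interferon-stimulated gene are shown first, because the results divide along these classes. The sequences are the 250 bases before a RefSeq start on GRCm38.p6, read 5′ to 3′ on the strand of the gene, and capitals mark the motif searched on both strands. The first 3 hold the C/EBP-ATF response element (TGATGNAA). Chac1, which encodes a glutathione-degrading enzyme, lies on chr2:119350992-119351241, plus strand. Slc7a11, which encodes the cystine transporter subunit xCT, lies on chr3:50443614-50443863, minus strand, and carries the element on both strands. Atf3, a stress-induced transcription factor, lies on chr1:191183334-191183583, minus strand.
Chac1: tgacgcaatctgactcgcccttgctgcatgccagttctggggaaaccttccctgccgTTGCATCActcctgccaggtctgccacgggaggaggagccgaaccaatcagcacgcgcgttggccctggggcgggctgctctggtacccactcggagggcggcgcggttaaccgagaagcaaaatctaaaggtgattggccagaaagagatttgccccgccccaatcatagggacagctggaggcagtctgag
Slc7a11: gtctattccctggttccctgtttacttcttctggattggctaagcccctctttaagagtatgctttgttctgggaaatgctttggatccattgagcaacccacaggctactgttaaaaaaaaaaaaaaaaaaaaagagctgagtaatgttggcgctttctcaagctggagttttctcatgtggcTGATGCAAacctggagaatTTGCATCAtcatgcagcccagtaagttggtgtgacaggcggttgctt
Atf3: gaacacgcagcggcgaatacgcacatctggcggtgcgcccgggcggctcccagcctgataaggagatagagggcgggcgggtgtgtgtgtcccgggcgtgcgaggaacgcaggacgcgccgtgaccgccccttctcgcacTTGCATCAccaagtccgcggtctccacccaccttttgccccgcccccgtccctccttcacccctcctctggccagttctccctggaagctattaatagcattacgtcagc
The next is Hspa1b, an inducible HSP70 chaperone, on chr17:34959239-34959488, minus strand, with the core of a heat shock element (GAANNTTC) in capitals. Mcm6, a subunit of the replicative helicase, on chr1:128359706-128359955, minus strand, holds the E2F site TTTGGCGC in capitals. Ifit1, an interferon-stimulated gene, on chr19:34640639-34640888, plus strand, holds the interferon-stimulated response element (GAAA repeated after 2 bases of any kind, here on the opposite strand).
Hspa1b: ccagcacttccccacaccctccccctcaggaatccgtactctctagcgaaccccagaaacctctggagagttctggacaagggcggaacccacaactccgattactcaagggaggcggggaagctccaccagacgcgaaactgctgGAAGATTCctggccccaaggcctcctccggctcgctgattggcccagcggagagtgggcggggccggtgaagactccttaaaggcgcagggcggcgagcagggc
Mcm6: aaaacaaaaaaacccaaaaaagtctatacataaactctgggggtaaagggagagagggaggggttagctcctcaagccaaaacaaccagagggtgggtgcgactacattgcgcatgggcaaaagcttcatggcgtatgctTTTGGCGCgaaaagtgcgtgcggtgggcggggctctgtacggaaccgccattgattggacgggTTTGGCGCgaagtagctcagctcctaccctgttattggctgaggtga
Ifit1: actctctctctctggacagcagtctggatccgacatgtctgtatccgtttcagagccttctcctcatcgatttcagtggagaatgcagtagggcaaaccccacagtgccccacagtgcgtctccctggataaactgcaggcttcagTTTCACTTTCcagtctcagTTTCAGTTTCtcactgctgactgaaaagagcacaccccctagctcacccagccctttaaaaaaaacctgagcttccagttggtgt
Over the full windows of 300 bases (250 before to 50 after the start), the C/EBP-ATF element was found in 11 of 32 integrated stress response genes with a window (34.4%), against 4.51% of the 27025 genes in the RefSeq table. The heat shock core was found in 11 of 22 chaperone genes (50%), against 9.04%. The E2F site TTTGGCGC was found in 6 of 39 DNA replication genes (15.4%), against 0.585% of the table, and a second E2F site searched, TTTCCCGC, in 7 of 39 (17.9%), against 1.24%. Among the genes tested here the shares were 3.02% for the C/EBP-ATF element, 6.86% for the heat shock core, 1.1% for TTTGGCGC and 2.34% for TTTCCCGC, but only 10459 of the 14650 had a window. Of the matches in the 6 sequences shown, 0 overlapped a match to another motif searched. The lists hold known targets of these factors, so their high shares are not a result of these data. Among genes called at least 2-fold higher with a window, 7.04% held the C/EBP-ATF element. Among those called at least 2-fold lower, 9.79% held the heat shock core, 0.699% TTTGGCGC and 2.8% TTTCCCGC. A match describes the letters only.

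The integrated stress response list showed the most uniform rise of the lists examined. Of its 38 members tested, 37 were called higher and 0 lower (background 19.9% higher), with a median log2 fold change of 1.32 against 0.02 over all genes. The 1 member not called was Slc38a2, a glutamine transporter gene with a log2 fold change of −0.04 ± 0.09 (SE). Trib3, a pseudokinase induced by ATF4, stood at 15.1, 23.6 and 17.9 CPM in the 3 cGAMP libraries and at 197, 196 and 198 CPM with 10 uM SB24011 added. Its groups were far apart and the treated libraries nearly equal, with a log2 fold change of 3.39 ± 0.22 (SE) and an adjusted p of 2.48e-08. Cth, which makes cysteine from cystathionine, went from 9.09, 12.1 and 12.5 CPM to 101, 116 and 105 CPM, and again the groups did not overlap (log2 fold change 3.26 ± 0.13, adjusted p = 5.63e-11). Aldh1l2, a mitochondrial folate enzyme, rose by 2.56 ± 0.11 on the log2 scale, and Gdf15, a stress-induced secreted factor, rose by 4.27 ± 0.32 from a mean of 0.603 CPM.

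ATF4's own transcript, Atf4, was measured at 387, 439 and 405 CPM with cGAMP and 910.3, 837 and 796 CPM with SB24011 added, a log2 fold change of 1.05 ± 0.08 (adjusted p = 8.63e-08). The rise in Atf4 was thus about that of a doubling and smaller than in several of its targets. Ddit3, which encodes the pro-apoptotic factor CHOP, rose by 2.29 ± 0.17, but it overlaps the more abundant Mars on the map and its count is uncertain, since no source used here gives the strand setting of the counting. The same limit applies to Atf5 (2.3 ± 0.14), which overlaps Nup62. Cebpg, a dimer partner of ATF4, rose by 1.48 ± 0.06, and Ppp1r15a, the phosphatase subunit that ends the response, rose by 1.52 ± 0.11. Atf3, whose promoter is printed above, stood at 89.2, 100.3 and 87.2 CPM and then 353, 229.9 and 224 CPM, without overlap, and Chac1 at 16.6, 22.8 and 17.9 CPM and then 59, 49.4 and 43.6 CPM. Their log2 fold changes were 1.54 ± 0.23 and 1.41 ± 0.18.

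Genes that supply amino acids and load tRNAs moved in the same direction. Their lists share members with the integrated stress response list, among them Slc3a2, Slc7a11, Sars, Nars, Asns, Phgdh and Pck2. Shared members are counted in each list, so these lists are not separate evidence. Of 17 amino acid transporters tested, 12 were called higher and 1 lower (76.5% called against 39.0% of all genes). The median log2 fold change was 0.99. Slc3a2, the heavy chain shared by several exchangers, stood at 210.2, 218 and 194 CPM and then at 851, 713 and 673 CPM (log2 fold change 1.85 ± 0.12). Slc7a11 stood at 37.3, 98.1 and 52 CPM with cGAMP and 202, 188 and 166 CPM with SB24011 added. The cGAMP libraries spread widely for Slc7a11, its log2 fold change of 1.57 ± 0.37 had an adjusted p of 0.00369, and without replicate 1 of every group it was 1.24 with an adjusted p of 0.0792. The glycine transporter gene Slc6a9 (1.87 ± 0.07) and the neutral transporter gene Slc1a4 (2.02 ± 0.14) rose as well. The exception was Slc7a6, a cationic and neutral amino acid exchanger gene, which fell by 0.73 ± 0.10.

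Of 20 cytosolic aminoacyl-tRNA synthetases, 13 were called higher and 1 lower (70% called against 39.0% of all genes), with a median of 0.61. Sars, for serine, stood at 316, 346 and 365 CPM and then at 723, 727 and 742 CPM, a log2 fold change of 1.09 ± 0.06 with no overlap between the groups. Gars (1.00 ± 0.06), Aars (0.93 ± 0.07), Lars (0.92 ± 0.06) and Nars (0.85 ± 0.06) followed within a narrow range. Farsa, a subunit of the phenylalanine enzyme, fell by 0.36 ± 0.06. Among 18 enzymes of serine, one-carbon, asparagine and transsulfuration metabolism, 14 were called higher and 3 lower, with a median of 0.92. Those called were 94.4% of the list, against 39.0% of all genes. Pck2, the mitochondrial PEP carboxykinase, rose by 2.36 ± 0.12, Gpt2, an alanine transaminase, by 1.67 ± 0.08, and Asns, asparagine synthetase, by 1.29 ± 0.08. Phgdh and Psat1, early steps of serine synthesis, rose less, by 0.83 ± 0.04 and 0.22 ± 0.06. Without replicate 1 of every group Psat1 was at 0.19 and was not called. Among those that fell were Shmt1 and Mthfd1, cytosolic enzymes of folate metabolism.

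The endoplasmic reticulum branch of the stress response was divided. Of 26 unfolded protein response genes, 7 were called higher and 8 lower (57.7% called against 39.0% of all genes), with a median of −0.15. Calls over all genes were also split nearly evenly, with 19.9% higher and 19.1% lower. Sensors and degradation factors were among those higher: Ern1, the sensor IRE1alpha, rose by 1.36 ± 0.08, Atf6 by 0.59 ± 0.06, Herpud1 by 0.65 ± 0.11 and Sel1l by 0.53 ± 0.07. Chaperones and folding factors were among those lower, among them Calr (calreticulin), which fell by 0.45 ± 0.13, and Sdf2l1 and Creld2, which fell by 0.49 and 0.47. The classes did not divide cleanly. The chaperone genes Dnajb9 (0.63 ± 0.12) and Hspa13 (0.35 ± 0.10) were called higher, and the degradation factor gene Edem1 was called lower (−0.27 ± 0.08). The number called lower was 13 with the replicate block (library set as a covariate) and 1 without replicate 3 of the SB24011 group. It was 2 without replicate 1 of that group, and 3 without replicate 2 or replicate 3 of the cGAMP group. The call of Calr was lost without replicate 1 of that group (log2 fold change −0.37). Hspa5, the lumenal chaperone BiP, stood at 2220.1, 2393 and 2265 CPM and then 2037, 2169.6 and 1785 CPM, and its log2 fold change of −0.20 ± 0.10 was not called (adjusted p = 0.113). In the blocked fit the same difference was called (adjusted p = 0.00763).

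**Figure D2:**
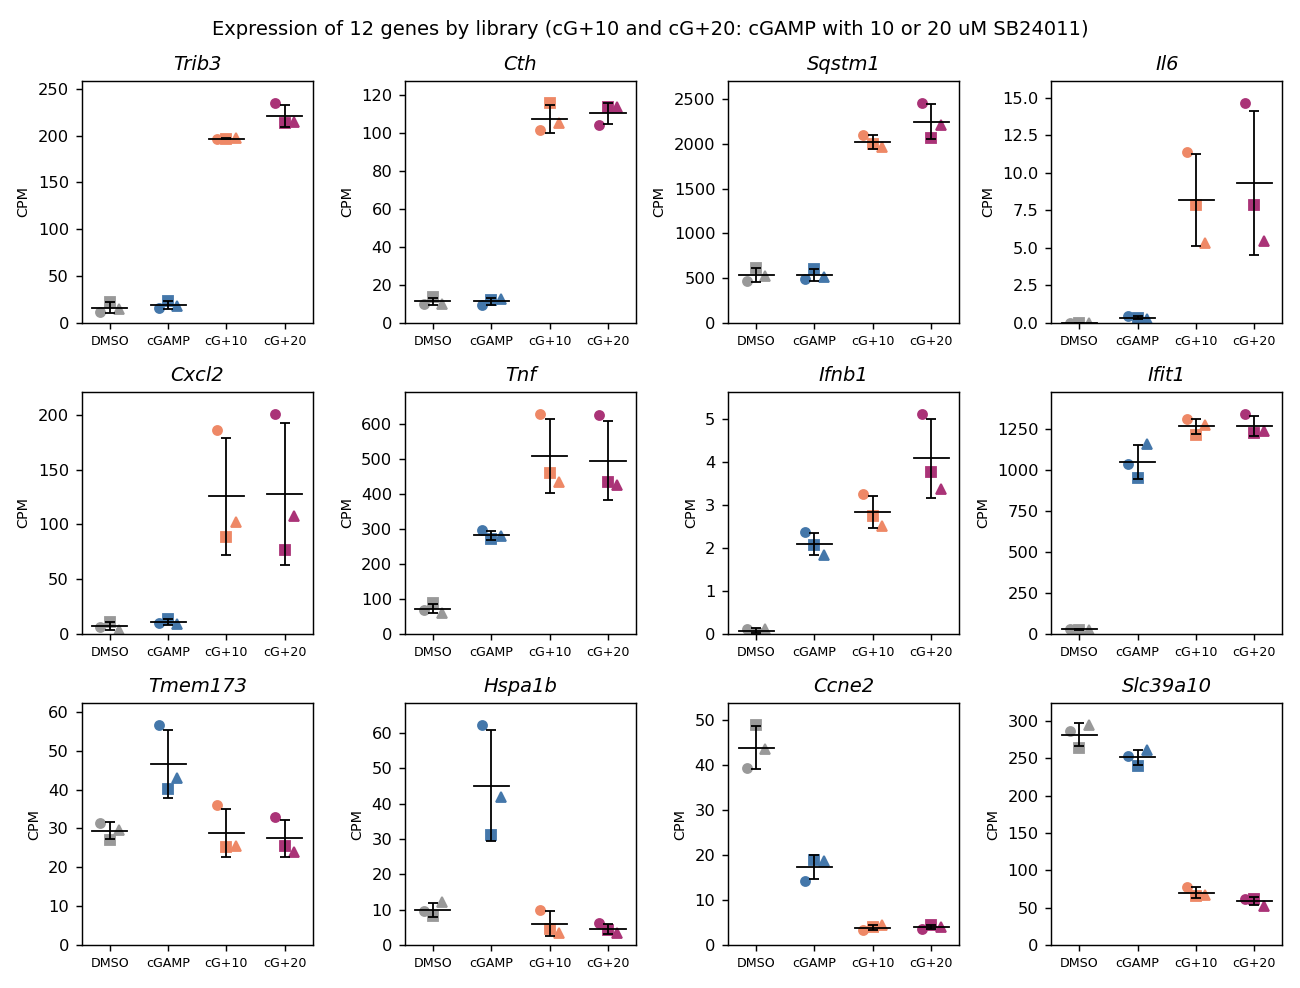
CPM of 12 genes in each library of the DMSO, cGAMP, cGAMP with 10 uM SB24011 (cG+10) and cGAMP with 20 uM SB24011 (cG+20) groups, on linear axes from 0; circles, squares and triangles are replicates 1, 2 and 3, and bars give the mean and SD (n = 3). Trib3, Cth and Sqstm1 sat at similar raised levels at both doses, Il6 and Cxcl2 were highest in replicate 1, and Hspa1b, Ccne2 and Slc39a10 were lower in all 6 libraries with SB24011 than in all 3 with cGAMP.

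Heat shock chaperones moved the other way. Of 26 tested, 19 were called lower and 1 higher (background 19.1% lower), with a median log2 fold change of −0.30. Hspa1b stood at 62.2, 31.2 and 41.9 CPM with cGAMP and at 9.97, 4.47 and 3.44 CPM with SB24011 added, against a DMSO mean of 9.96 CPM. Every SB24011 library was below every cGAMP library, by 2.93 ± 0.35 on the log2 scale (adjusted p = 1.53e-05). Hspa1a, a near-identical copy, fell by 2.73 ± 0.31, and reads of these copies may be shared between them. Hspa8, the constitutive HSC70 chaperone, was at 3796, 3369 and 3377 CPM and then at 2018, 1659 and 1432 CPM, without overlap. It fell by 1.04 ± 0.11, Hsph1 (HSP110) by 0.94 ± 0.11, Dnaja1 by 0.69 ± 0.08, Dnajb1 (both HSP40 co-chaperones) by 0.68 ± 0.10, and Hsp90aa1 by 0.49 ± 0.06. Ubb, a polyubiquitin gene on the same list, rose by 0.51 ± 0.08. With the replicate block 2 members of this list were called higher.

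Genes of the cell cycle were lower with SB24011. Of 48 DNA replication genes 34 were called lower and 0 higher (70.8% called against 39.0% of all genes). Their median log2 fold change was −0.44. Of 26 genes for G1/S cyclins, E2F factors and CDK inhibitors 16 were lower and 1 higher (65.4% called), with a median of −0.64. Of 40 mitotic genes 33 were lower and 0 higher (82.5% called), with a median of −0.33. Cyclin E genes showed some of the steepest falls. Ccne1 stood at 28.9, 31.6 and 34.4 CPM and then at 10.9, 13.8 and 11.4 CPM, and fell by 1.39 ± 0.15. Ccne2 fell by 2.18 ± 0.16, although it overlaps the more abundant Ints8. The groups did not overlap for either cyclin gene. Among repressors of the E2F family, E2f7 fell by 1.82 ± 0.12 and E2f8 by 1.28 ± 0.10, while the activator E2f1 fell by 0.87 ± 0.13.

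Licensing and helicase genes followed. Cdc6, which loads the helicase, fell by 1.33 ± 0.12, and Mcm6, whose promoter is printed above, stood at 301, 299.7 and 334 CPM and then at 165, 157 and 175 CPM, falling by 0.91 ± 0.06 (adjusted p = 1.73e-08). Mcm4 fell by 1.02 ± 0.08, Mcm7 by 0.84 ± 0.08, Pcna, the sliding clamp, by 0.66 ± 0.07, and Rrm2, a ribonucleotide reductase subunit, by 1.36 ± 0.16. Ung, which removes uracil from DNA, was among the 12 largest falls, at 8.74, 12.3 and 13 CPM and then at 2.16, 2.79 and 3.13 CPM. In mitosis, Aurkb fell by 0.75 ± 0.11, Cdk1 by 0.53 ± 0.05 and the proliferation marker Mki67 by 0.48 ± 0.08. The G1 cyclin gene Ccnd1 fell by 0.70 ± 0.13, whereas Ccnd2 rose from 4.6, 6.02 and 4.16 CPM to 16.5, 20.2 and 13.8 CPM, the 1 member of its list called higher. With the replicate block 2 members of that list were called higher. Cdkn1a, the inhibitor p21, was not called, with a log2 fold change of 0.13 ± 0.12 and a 95% interval of −0.11 to 0.38.

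Ribosome biogenesis genes were mostly lower, with 21 of 37 called lower and 3 higher and a median of −0.24. Those called were 64.9% of the list, against 39.0% of all genes. Polr1b, a subunit of RNA polymerase I, fell by 0.84 ± 0.09, Nop16 by 0.75 ± 0.10 and Dkc1, the pseudouridine synthase, by 0.71 ± 0.14. Myc, a transcription factor that drives this programme, went the other way, from 4.76, 3.09 and 2.99 CPM to 15, 11.1 and 11.3 CPM (log2 fold change 1.77 ± 0.28). The p53 target list had 8 higher and 3 lower of 22 tested (50% called against 39.0% of all genes). With the replicate block 6 were lower. Gadd45a rose by 2.73 ± 0.27, Sesn2, a stress-induced inhibitor of mTORC1 signalling, by 1.73 ± 0.15, and Bbc3, the BH3-only protein PUMA, by 0.96 ± 0.13.

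Sterol genes fell together. Of 25 cholesterol biosynthesis and SREBP2 genes, 17 were called lower and 1 higher, with a median of −0.26. Of 16 LXR target and efflux genes 9 were lower and 2 higher, with a median of −0.32. Those called were 72% and 68.8% of their lists, against 39.0% of all genes. Hmgcs1, HMG-CoA synthase, stood at 244, 235 and 239 CPM and then at 163, 138 and 149 CPM and fell by 0.68 ± 0.06. Stard4, a sterol carrier, fell by 0.77 ± 0.09, and the transporter gene Abca1 fell by 1.64 ± 0.44 from a mean of only 1.05 CPM. Mvk, mevalonate kinase, was the exception among the synthesis genes at 0.24 ± 0.06. Soat2, which esterifies cholesterol, was on neither list and rose from 1.02, 1.21 and 1.1 CPM to 15.4, 13.6 and 14.9 CPM, one of the 12 largest rises. Glycolysis and hypoxia genes had 14 of 28 lower and 4 higher (64.3% called against 39.0% of all genes). Without replicate 2 of the SB24011 group the number lower was 8, and without replicate 1 of the cGAMP group 9. Pgam1, phosphoglycerate mutase, fell by 0.71 ± 0.08 and the lactate exporter gene Slc16a3 by 1.12 ± 0.21.

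For zinc handling, 4 of 17 metallothionein and zinc transporter genes were higher and 4 lower (47.1% called against 39.0% of all genes). Slc39a10, a zinc importer gene on the plasma membrane, stood at 252, 240.0 and 261 CPM with cGAMP and at 78, 66.1 and 66.1 CPM with SB24011 added. It was among the 12 largest falls, at −1.84 ± 0.12 on the log2 scale (adjusted p = 5.33e-09). The zinc exporter gene Slc30a1 rose by 1.12 ± 0.26, but was not called without replicate 1 of every group (1.11). Mt2 rose by 1.87 ± 0.46, whereas Mt1 was not called (−0.40 ± 0.25, adjusted p = 0.244). With the replicate block Mt1 was called lower, at −0.38.

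Sqstm1, which encodes the autophagy receptor p62, stood at 483, 605 and 509 CPM and then at 2103, 1994 and 1963 CPM, a log2 fold change of 1.92 ± 0.11. It was the largest rise in the lysosome and autophagy list. Of that list 18 of 46 were higher and 4 lower (47.8% called against 39.0% of all genes), with a median of 0.16. Npc1, a lysosomal cholesterol exporter, rose by 0.72 ± 0.06 and Mcoln1, a lysosomal calcium channel, by 0.61 ± 0.06, while Gabarapl1, an ATG8 family member, fell by 0.77 ± 0.07. NRF2 and oxidative stress genes were less uniform, with 7 of 34 higher and 3 lower and a median of 0.07. Those called were 29.4% of that list, against 39.0% of all genes. With the replicate block 11 were higher and 8 lower, and without replicate 3 of the SB24011 group 1 was lower. Hmox1, heme oxygenase 1, was at 96.9, 144 and 110.2 CPM and then at 148, 186 and 186 CPM, and its log2 fold change of 0.57 ± 0.21 was only just called (adjusted p = 0.0469). Leaving out any of 4 libraries ended that call, with values from 0.45 to 0.52.

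Several cytokine genes of the NF-kB branch rose further. Of 33 cytokine and chemokine genes tested, 11 were called higher and 0 lower, with a median of 0.46. Of 41 NF-kB genes 17 were higher and 0 lower, with a median of 0.34. Those higher were 33.3% and 41.5% of their lists, against 19.9% of all genes. Il6 stood at 0.456, 0.279 and 0.259 CPM with cGAMP and at 11.4, 7.84 and 5.3 CPM with SB24011 added, and was 0 in all DMSO libraries. The log2 fold change of this interleukin gene was 4.59 ± 0.48 (adjusted p = 4.84e-06), and every SB24011 library was above every cGAMP library. Cxcl2, a neutrophil chemokine, stood at 10.1, 13.6 and 8.55 CPM and then at 186, 88.2 and 102 CPM, without overlap and with replicate 1 highest. It rose by 3.55 ± 0.42, the colony-stimulating factor gene Csf3 by 3.56 ± 0.59 and Lif by 3.15 ± 0.44.

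Tnf stood at 297, 270.2 and 280.0 CPM with cGAMP and at 629.7, 461 and 436 CPM with SB24011 added, a log2 fold change of 0.85 ± 0.16 (adjusted p = 5.17e-04). Osm rose by 1.55 ± 0.23, Csf1, the macrophage growth factor, by 1.16 ± 0.23, and Vegfa by 0.90 ± 0.10. Il1b stood at 0.246, 0.302 and 0.259 CPM and then at 9.44, 1.01 and 2.13 CPM, so replicate 1 held most of the rise. Its log2 fold change of 3.95 ± 1.14 (adjusted p = 0.0129) was 2.54 with an adjusted p of 0.0874 without that library. Il1a was 0 in the 3 cGAMP libraries and 3.44, 0.469 and 0.773 CPM with SB24011 added, at least 80-fold higher against a floor of 3 counts over the cGAMP group. Replicate 1 was again highest, and without it the bound was 31.8-fold. Il23a was under 1 CPM in all 6 libraries and its call was lost without cGAMP replicate 1 (log2 fold change 2.3 in place of 2.96). The chemokine genes Ccl5 (0.92 ± 0.42, adjusted p = 0.103) and Ccl2 (0.46 ± 0.44) were not called. Ccl5 was called with the replicate block (0.86, adjusted p = 0.0214) and without replicate 3 of the SB24011 group (1.19, adjusted p = 0.0497). With the replicate block 16 cytokine genes were higher and 3 lower.

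Among NF-kB targets and regulators, Nfkbiz, an atypical IkB protein needed for Il6 transcription, stood at 23.5, 21.1 and 24.3 CPM and then at 148, 82.1 and 78 CPM, a log2 fold change of 2.16 ± 0.26. Ptgs2, cyclooxygenase 2, rose by 1.62 ± 0.36 and Nos2, the inducible nitric oxide synthase, by 1.23 ± 0.29. The feedback inhibitor gene Nfkbia was not called (0.26 ± 0.19, 95% interval −0.16 to 0.67), but was with the replicate block (0.24, adjusted p = 0.00992). Tnfaip3 (A20) rose by 0.76 ± 0.28, a call lost without replicate 1 of the SB24011 group (0.47), replicate 2 of the cGAMP group (0.65) or replicate 3 of the cGAMP group (0.71). Without replicate 1 of the SB24011 group 10 NF-kB genes were called higher, and with the replicate block 24. Bcl2a1b, an anti-apoptotic BCL2 relative and NF-kB target with close copies, rose by 1.72 ± 0.18, and Bcl2 itself by 1.36 ± 0.16. Of 18 BCL2 family genes 6 were higher and 2 lower (44.4% called against 39.0% of all genes), and 6 were lower with the replicate block.

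**Figure D3:**
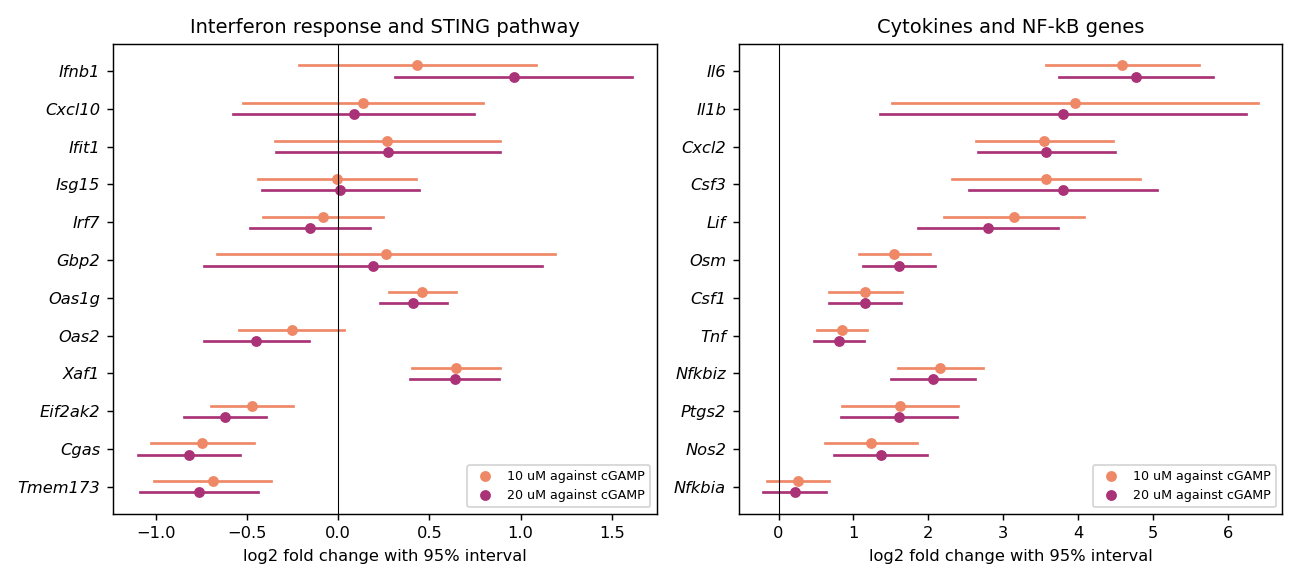
Log2 fold change and its 95% interval against cGAMP alone for 12 interferon or STING pathway genes (left) and 12 cytokine or NF-kB genes (right), at 10 uM (orange) and 20 uM SB24011 (purple), on different horizontal scales. The intervals of Cxcl10, Isg15, Ifit1 and Irf7 span 0 at both doses, those of Tmem173 and Cgas lie below 0, and those of Il6 and Cxcl2 lie above 2.

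The interferon-stimulated genes, in contrast, were seldom called. Of 62 tested, 2 were called higher and 1 lower, a share well under the background of 39.0%. The median was 0.13, and 46 of the 62 had a log2 fold change above 0. The 2 were Oas1g (0.46 ± 0.09) and Xaf1 (0.65 ± 0.11), and the 1 lower was Eif2ak2, which encodes the kinase PKR and fell by 0.47 ± 0.11. In a fit of only the 6 libraries compared, 9 were called higher, among them Ifit1. With the replicate block 9 were higher and 4 lower, and without replicate 1 of every group 5 were higher and 4 lower. The genes themselves were strongly expressed: Ifit1 stood at a DMSO mean of 26.3 CPM, at 1041, 955 and 1159.8 CPM with cGAMP and at 1311, 1217 and 1278 CPM with SB24011 added. All SB24011 libraries were above all cGAMP libraries for Ifit1, and the log2 fold change of 0.27 ± 0.29 had a 95% interval of −0.34 to 0.88 (adjusted p = 0.493). Cxcl10, an interferon-induced chemokine, was at 1221, 974 and 1183 CPM and then at 1410.2, 1197 and 1108 CPM, with overlapping groups and an interval of −0.52 to 0.80. Isg15 had an interval of −0.44 to 0.43 and Irf7 one of −0.41 to 0.25, so changes of up to about these sizes were not resolved.

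Ifnb1 was the 1 type I interferon gene of 16 listed that passed the filter. It stood at a DMSO mean of 0.0669 CPM, at 2.35, 2.07 and 1.83 CPM with cGAMP and at 3.24, 2.74 and 2.49 CPM with 10 uM SB24011 added. The groups did not overlap, but the log2 fold change of 0.43 ± 0.31 was not called (adjusted p = 0.288, 95% interval −0.22 to 1.09). On the log2(FPKM + 1) scale limma gave an adjusted p of 0.0371.

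Among the 32 STING pathway genes tested, 8 were called higher and 5 lower, with a median of 0.03. Those called were 40.6% of the list, near the 39.0% of all genes. Without replicate 1 of every group 8 were lower. Tmem173, the deposited table's symbol for the STING gene, stood at a DMSO mean of 29.3 CPM, at 56.6, 40.1 and 42.9 CPM with cGAMP and at 36.1, 25.2 and 25.5 CPM with SB24011 added. Every SB24011 library was below every cGAMP library, and the level fell by 0.69 ± 0.15 (adjusted p = 0.0018). Cgas, the sensor gene, fell by 0.74 ± 0.13, also without overlap, from 162, 128 and 159 CPM to 89.9, 79.7 and 98.3 CPM. Tbk1 was not called (−0.25 ± 0.10, adjusted p = 0.0603) but was in the blocked fit (adjusted p = 0.00721), and also without replicate 2 of the cGAMP group (−0.30, adjusted p = 0.0467) or replicate 1 of the SB24011 group (−0.35, adjusted p = 0.0153). Irf3 showed no difference that was called (0.02 ± 0.09, 95% interval −0.16 to 0.20). Higher were Ticam2, a Toll-like receptor adaptor, by 1.81 ± 0.08, and Ikbke, a TBK1-related kinase, by 1.02 ± 0.28. Ikbke was not called without replicate 1 of the SB24011 group (0.73). Trim29, the partner named in the series' title, was not tested. Its counts were 0 in the 3 libraries with 10 uM SB24011, which allows up to 0.0590 CPM in the shallowest of them by counting error alone, and 5 in 1 cGAMP library.

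Of 25 MHC class I genes 1 was higher, Mr1 (0.66 ± 0.20, not called without cGAMP replicate 1), and 1 lower, Calr, together 8% of the list against 39.0% of all genes. With the replicate block 3 were higher and 4 lower. Of 14 costimulatory and checkpoint ligands 3 were higher and 2 lower (35.7%, close to the share over all genes), and 7 higher with the replicate block and 5 higher without replicate 1 of every group. Cd274, which encodes PD-L1, stood at a DMSO mean of 4.94 CPM, at 38.6, 38.6 and 39.9 CPM with cGAMP and at 102, 105 and 97.8 CPM with SB24011 added. It rose by 1.38 ± 0.14 with no overlap, Cd86 rose by 1.55 ± 0.44, and Cd80 fell by 0.67 ± 0.14. The call of Cd86 was lost without cGAMP replicate 3 (1.32).

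Macrophage identity genes were divided, with 9 of 30 higher and 5 lower (46.7% called against 39.0% of all genes), and 8 lower with the replicate block. Cx3cr1, the fractalkine receptor, stood at a DMSO mean of 100.4 CPM, at 22.6, 20.9 and 21 CPM with cGAMP and at 7.91, 4.88 and 6.28 CPM with SB24011 added. It fell by 1.76 ± 0.23 from a level already below DMSO. Fcgr2b, the inhibitory Fc receptor, rose by 1.59 ± 0.11 and Ccr2, a chemokine receptor gene, by 1.16 ± 0.21. Klf4, a transcription factor on the immediate early list, stood at 3.37, 4.41 and 3.92 CPM and then at 32.9, 33.8 and 34.8 CPM, a log2 fold change of 3.12 ± 0.17, and Arc fell by 1.64 ± 0.23.

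Outside the lists, the largest rises among genes of at least 1 CPM were in transcripts scarce with cGAMP alone. Extl1, a heparan sulfate glycosyltransferase, stood at 0.176, 0.256 and 0.237 CPM and then at 6.14, 9.05 and 7.83 CPM, a log2 fold change of 5.11 ± 0.31. Aqp9, an aquaglyceroporin, stood at 0.421, 0.906 and 0.56 CPM and then at 10.5, 14.2 and 12.5 CPM. Adh7, an alcohol dehydrogenase, rose by 4.22 ± 0.40 and Fbln5, an extracellular matrix protein, by 4.23 ± 0.80. Fits of genes this low rest on few counts, and Car6, a secreted carbonic anhydrase, had 0 counts in 2 of the 3 cGAMP libraries. Large falls were seen in Kbtbd11, from 221, 187 and 195 CPM to 46.9, 47.5 and 54.8 CPM, and in Tgif2, a transcriptional repressor, from 11.3, 8.25 and 11.2 CPM to 3.13, 2.51 and 2.49 CPM. Neither gene's groups overlapped, and they fell by 2.01 ± 0.15 and 1.93 ± 0.19. Sema7a, a semaphorin, fell by 2.66 ± 0.59 and Cxcr3, a chemokine receptor gene, by 1.80 ± 0.32, both from low levels.

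Raising SB24011 from 10 uM to 20 uM on the same cGAMP dose gave no further change that was called. In edgeR's quasi-likelihood test 0 of 14650 genes were called (0.0%), the smallest adjusted p was 0.520, and 404 genes (2.76%) had an unadjusted p under 0.05. DESeq2 also called 0 genes, with 427 at an unadjusted p under 0.05 and a smallest adjusted p of 0.0584, and limma on log2(FPKM + 1) called 0, with 462. With library set as a replicate block the count was again 0, with 866 at an unadjusted p under 0.05. A count of 0 does not show that the doses act alike, so the intervals matter. The 95% interval of the difference lay within 1 log2 unit of 0 for 82.6% of genes tested and within 0.5 for 67.5%. For the remaining genes a larger difference was not resolved. These intervals come from the main fit, which has no term for library set. Spread shared by libraries of a set stays in its error, so the intervals may be wider than with such a term.

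The libraries of the doses did not overlap in 7.04% of genes tested, in either direction. Trib3 stood at 235, 213 and 215 CPM at 20 uM, all above the 10 uM libraries given above, and the difference of 0.17 ± 0.19 on the log2 scale had an interval of −0.25 to 0.58. Mcm6 was at 157, 174 and 158 CPM, with an interval of −0.16 to 0.11, and Cth had one of −0.20 to 0.28. For Sqstm1 the interval was −0.07 to 0.37 and for Tmem173 −0.40 to 0.25. Wider intervals remained for Il6, −0.59 to 0.96, for Cxcl2, −0.77 to 0.83, and for Hspa1b, −1.17 to 0.39. Ifnb1 was at 5.1, 3.76 and 3.36 CPM at 20 uM, without overlap with the 10 uM libraries, and its difference of 0.53 ± 0.30 had an interval of −0.11 to 1.16. Slc39a10 was at 61, 61.9 and 52 CPM, also without overlap, with an interval of −0.50 to −0.03 but an adjusted p of 1.00.

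**Figure D4:**
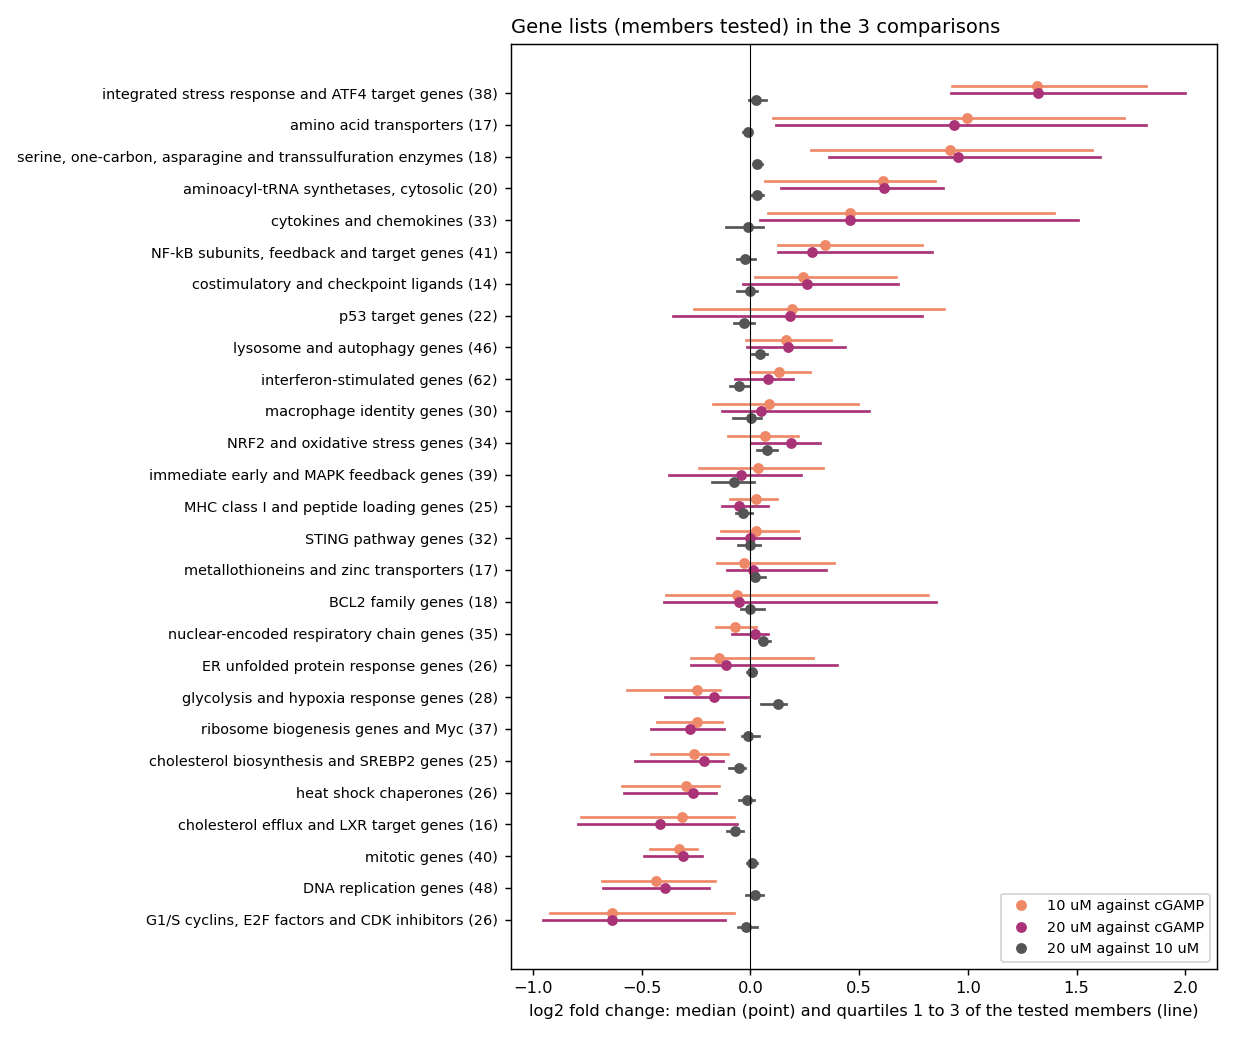
Median log2 fold change (point) and quartiles 1 to 3 (line) of the tested members of each gene list with more than 5 tested, for 10 uM against cGAMP (orange), 20 uM against cGAMP (purple) and 20 uM against 10 uM (grey). The integrated stress response has medians of 1.32 and 1.32 against cGAMP and 0.03 between the doses, and the G1/S list has −0.64, −0.64 and −0.02.

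Against cGAMP alone, 20 uM SB24011 gave 6201 called genes (42.3%), 3180 higher (21.7%) and 3021 lower (20.6%). These share the cGAMP libraries with the 10 uM comparison, so the values are set side by side without an overlap. The integrated stress response list had 37 members higher at 10 uM and 36 at 20 uM, with medians of 1.32 at both. DNA replication genes had 34 and 35 lower, with medians of −0.44 and −0.39, heat shock chaperones 19 and 16 lower, with −0.30 and −0.26, and cytokines 11 and 12 higher, with 0.46 at both. Interferon-stimulated genes had 2 higher at both doses, and 1 and 3 lower. Counts differed more in other lists. Glycolysis and hypoxia genes had 14 lower at 10 uM and 9 at 20 uM, with medians of −0.24 and −0.17, and the median of the difference between the doses was 0.13, with 25 of 28 members above 0. Respiratory chain genes had 10 and 5 lower, with medians of −0.07 and 0.02, and a median difference of 0.06 with 34 of 35 members above 0. No member of either list was called between the doses. Over all genes the median difference between the doses was 0.0017. Members of a list can move together within a library, so the counts above 0 are descriptions and not a test of dose. Immediate early genes had 4 and 8 lower, and STING pathway genes 5 and 8. Ifnb1 was called at 20 uM only, with 0.96 ± 0.31 there against 0.43 ± 0.31 at 10 uM, and the test between the doses did not call it.

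Whole libraries were compared as well. The distance between a pair of libraries was taken as the SD over genes of the difference in log2(CPM + 1). Pairs of 10 uM and 20 uM libraries with the same replicate number were 0.159 to 0.171 apart, and pairs with different numbers 0.190 to 0.278. Replicates within a group were 0.187 to 0.278 apart. The cGAMP and 10 uM libraries were 0.386 to 0.437 apart. Replicates of a group always differ in number, so only pairs with different numbers can be set against them. Among such pairs, the 10 and 20 uM libraries lay in about the range of replicates, and the cGAMP and 10 uM libraries, at 0.404 to 0.437, lay above it. For pairs with the same number there are no replicates to compare with.

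**Figure D5:**
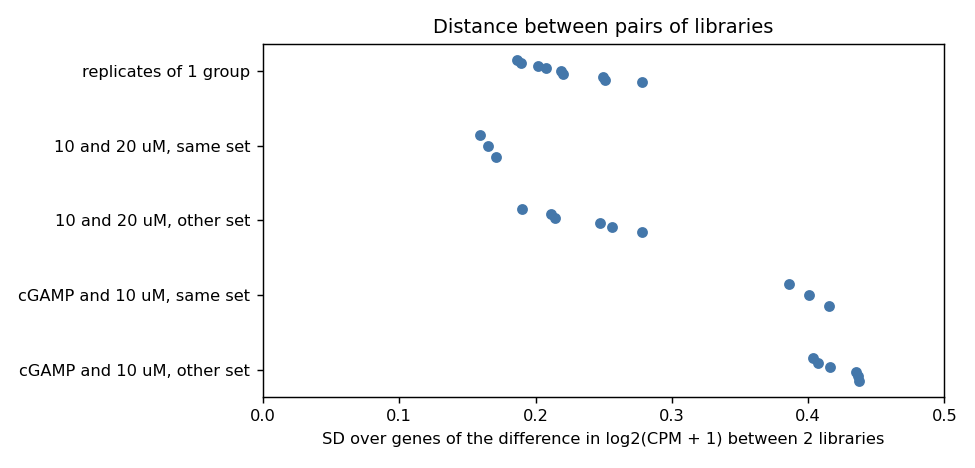
Each point is a pair of libraries, placed by the SD over genes of their difference in log2(CPM + 1). Pairs of 10 and 20 uM libraries from different sets (0.190 to 0.278) span about the range of replicates of 1 group (0.187 to 0.278), which also come from different sets. Same-set pairs of these doses lie at 0.159 to 0.171, without replicates to compare with. The cGAMP and 10 uM pairs lie at 0.386 to 0.437.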

How the data were processed

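RNA from RAW264.7 cells was prepared as stranded mRNA libraries (TruSeq kit, per the labels' protocols). The tools listed in the submitters' processing notes are StringTie (2.1.3b), Bowtie2 (2.3.4.1), HISAT2 (2.1.0) and Trimmomatic (0.38), and the builds listed are mm10 and GRCm38. Which tool did what, how reads were counted and with which strand setting is not given in the sources used. The authors deposited a table with a read count and an FPKM value per gene and library, per the file headers. Its 18 TPM columns were not used, nor was a second, quantile-normalized table.

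The counts of 45777 genes in 18 libraries were filtered with filterByExpr of edgeR (4.0.16, R 4.3.3), which kept 14650, libraries were scaled by TMM, and 1 robust quasi-likelihood model with 12 residual degrees of freedom was fitted to the 6 groups of 3. Each comparison was a two-sided F-test, with Benjamini-Hochberg adjustment over the 14650 genes and a call under 0.05. Fold changes use a prior count of 0.125. SE derives from the F statistic, and 95% intervals from the fitted model. Levels are TMM-scaled CPM. A floor of 3 counts stands for a group at 0, and floors cover counting error only. Total counts of 45165780 to 65810517 per library set the precision for scarce genes. The model was tested on simulated data.

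The libraries compared were chosen by their treatment labels. The gene lists were chosen with earlier results of these data known, and some share members, so the list counts are descriptions without a test. Named genes were the 12 largest called rises and falls with no overlap and a mean of at least 1 CPM, up to 5 called members of each list with at least 20% of members called, and a fixed panel that included Ifnb1, Ifit1, Tnf, Tmem173 and Trim29. The matching rule for 20 uM against 10 uM named no gene. Genes outside the rule, such as list exceptions, Csf1, Osm and Mcm7, were chosen after their values were seen. Of 190 named genes, 34 overlap another tested gene and 9 overlap a more abundant one, and 2 have only clone names and are not described. A few named genes are not reported here. Of the gene IDs, 45679 were found in the RefSeq table of GRCm38.p6, which gave coordinates and promoters.

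Library numbers 1 to 6, 21 to 26 and 31 to 36 give each replicate number its own set. Deviations from the group means of same-numbered libraries correlated at 0.483, 0.304 and 0.378 for 10 uM against cGAMP. For 20 uM against 10 uM they correlated at 0.611, 0.271 and 0.564. The numbers were therefore taken to pair the libraries, from the data and not from a statement in the labels. The main fit has no term for this pairing. With library set as a replicate block, more genes were called for 10 uM against cGAMP (7027 against 5708). A fit with library set as a replicate block, other scalings and filters, a fit of only the groups compared, DESeq2 1.42.0, limma 3.58.1 on log2(FPKM + 1) and log2(FPKM + 0.1), and leaving out each library were the alternatives.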

Additional observations from a re-analysis of the deposited data

How the results depend on the processing

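The count of genes called for 10 uM SB24011 on cGAMP against cGAMP (5708) was within 1.5-fold under each alternative run, from 4852 to 7027. Leaving out 1 library gave 4887 to 5041 genes, with 2516 to 2606 higher and 2371 to 2507 lower. Leaving out replicate 1 of every group, an alternative chosen after seeing the data, gave 4852. For 20 uM against 10 uM, 0 genes were called under each alternative run, leaving out 1 library included. For 20 uM against cGAMP, leaving out 1 library gave 5322 to 5892 genes, 2719 to 3091 higher and 2603 to 2801 lower. With library set as a replicate block 7027 genes were called for 10 uM, 0 for 20 uM against 10 uM and 7496 for 20 uM against cGAMP. Where the block changed the call of a gene described, the value stands beside it, and so do the larger changes in list counts. Scaling by library size alone gave 3179 higher and 2340 lower at 10 uM and moved the median of all genes from 0.02 to 0.06. The planned run of limma on the quantile-normalized table was not run.

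Of 170 named genes called at 10 uM, 19 lost the call under some alternative and 11 others gained one. The log2 fold changes that changed sign were all of genes not called, and the cause was not tested. Leaving out 1 library gave −0.0096 to 0.23 for Cdkn1a, −0.051 to 0.079 for Irf3 and −0.23 to 0.034 for Irf7. The same step gave −0.16 to 0.56 for Gbp2, −0.13 to 0.015 for Slc38a2 and −0.13 to 0.085 for Isg15. Isg15 also changed sign with library size alone (0.025), with no filter (0.000714), with genes restricted to 1 CPM or more (0.0064) and with limma on both pseudocounts (0.0023). Depth limits the genes under 1 CPM, such as Il23a and Trim29, and the spread of replicates limits Cxcl10, Gbp2 and Ccl5.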

Other observations

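Nuclear-encoded respiratory chain genes shifted little with 10 uM SB24011 on cGAMP, with 10 of 35 called lower and 2 higher (34.3% called against 39.0% of all genes) and a median log2 fold change of −0.07. Sdhd, a subunit of complex II, stood at 186, 186 and 196 CPM with cGAMP and at 124, 129 and 121 CPM with SB24011 added, and fell by 0.60 ± 0.06 (SE). Cycs, cytochrome c, fell by 0.38 ± 0.06, and Uqcrq, a subunit of complex III, rose by 0.41 ± 0.05. The number lower was 4 without replicate 1 of every group and 6 with library size alone or with limma on log2(FPKM + 1).

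Immediate early and MAPK feedback genes had 6 of 39 called higher and 4 lower, or 25.6% called against 39.0% of all genes tested. Klf2, a transcription factor that restrains macrophage activation, stood at 7.21, 7.48 and 7.65 CPM with cGAMP and at 19.6, 18.5 and 25.9 CPM with SB24011 added, without overlap. The number lower in this list ranged from 1 without cGAMP replicate 1 to 10 without replicate 1 of the SB24011 group, so no count of falls is firm. It was 2 without replicate 2 and 1 without replicate 3 of that group, and 7 with the replicate block.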
